A study of Mus musculus with 1627 samples.

Results

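Regulatory T cells (Tregs) of injured muscle were set against only those spleen Tregs that carried an effector-like RNA profile, to ask which differences between the tissues were left when resting spleen cells were put aside. The spleen side was 65 spleen cells, the 25.1% of that library with the highest percent of their UMIs (unique molecular identifiers, each standing for 1 captured mRNA) in 14 genes of activated and migrating T cells: Cd44, S100a4, S100a6, S100a10, S100a11, Lgals1, Lgals3, Crip1, Anxa2, Vim, Itgb1, Ahnak, Id2 and Cd48. The muscle side was every muscle cell, 1368 in all, with 49.3% of them in muscle library 1 and 50.7% in muscle library 2. Thus 1433 of the 1627 cells of the study took part, and the other 74.9% of the spleen cells were the reference that was set aside. All cells came from male B6 Foxp3-Ires-Gfp mice aged 8 months, in which a green fluorescent protein reports Foxp3 expression, and every animal, those giving the spleen cells included, had received cardiotoxin in muscle 4 days earlier. Cells were sorted as DAPI- TCRb+ CD4+ GFP+; muscle had been digested with enzymes and spleen only dispersed mechanically, so that tissue and dissociation cannot be told apart. Libraries were made with inDrops, a droplet method that primes at the poly(A) tail. There was 1 spleen library, and the labels tie neither muscle library to an animal, so no test between tissues was possible and no p-value is given; intervals are exact 95% intervals for counting error only, and UMIs cluster within cells, which they leave out.

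Tregs hold back other immune cells, and like conventional T cells they pass from a resting state, in which they circulate through lymphoid organs, to an effector state, in which they gain receptors for entering tissues and molecules for suppression. Tregs that settle in tissues such as muscle, fat and skin add further features, among them the interleukin-33 receptor ST2 (Il1rl1) and secreted factors that act on repair. A spleen holds resting and effector Tregs side by side, so a comparison of muscle with a whole spleen mixes the step from resting to effector with whatever separates an effector Treg in spleen from one in muscle.

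The effector-like spleen cells held between 0.841% and 3.71% of their UMIs in the selection genes, with a median of 1.41%, and the other spleen cells between 0% and 0.810%, with a median of 0.216%. The 3 cells just inside the threshold stood at 0.847%, 0.841% and 0.841%, and the 3 just outside at 0.810%, 0.807% and 0.791%; 14 spleen cells lay within 10% of the threshold. Score values thus passed from one set to the other without a gap. Muscle cells had medians of 1.77% and 1.81%, and 88.9% (86.3 to 91.1) and 89.05% (86.5 to 91.3) of them reached the spleen threshold.

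**Figure D1:**
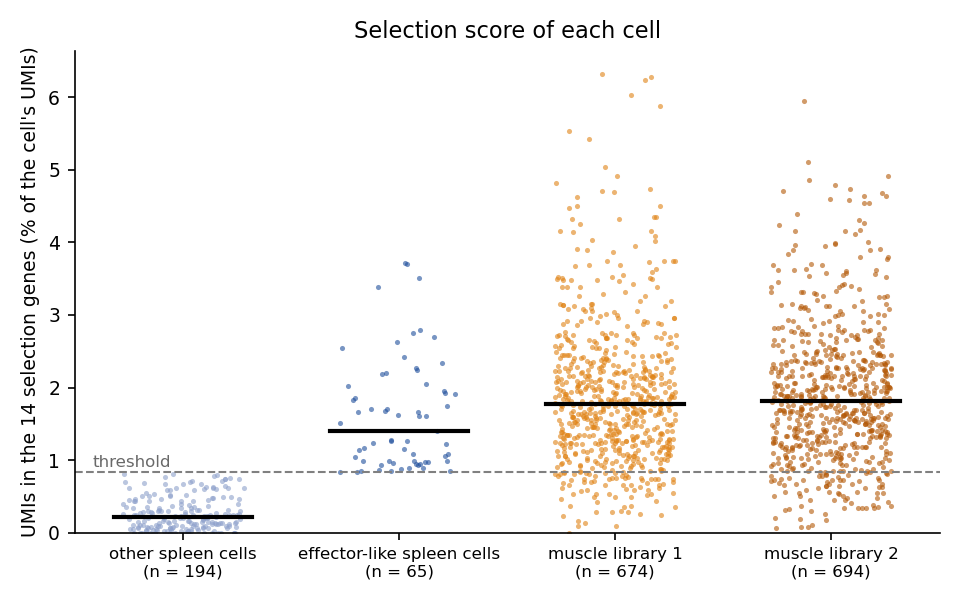
Percent of each cell's UMIs in the 14 selection genes (vertical axis) for the other spleen cells, the effector-like spleen cells and both muscle libraries; points are cells, black bars medians and the dashed line the threshold. The muscle medians of 1.77% and 1.81% lie above the effector-like median of 1.41%, and the spleen cells form one continuous range.

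The effector-like cells gave 306346 UMIs in all, the other spleen cells 676224, and the muscle libraries 1533277 and 1916496. On the CPM scale, on which each group's counts are rescaled to one fixed total, 1 UMI was therefore worth 3.26 in the effector-like cells against 0.652 and 0.522 in muscle, which makes the spleen side the limit on precision. Median UMIs per cell were 4607 in the effector-like cells, 1976 in muscle library 1 and 2488 in muscle library 2, median reads per UMI 55.3, 24.4 and 44.7, and ribosomal protein genes took 17.98%, 13.68% and 14.03% of UMIs. Barcodes were shared by 11 cells between the muscle libraries, by 1 between muscle library 1 and spleen, and by 0 between muscle library 2 and spleen. Markers of other cell types were scarce on both sides: the summed level of the 18 myeloid genes in the table was 156.7 CPM in the effector-like cells against 160.4 and 165.9 in muscle, with 14 of the 18 at 0 in the effector-like cells, and 10 B and plasma cell genes summed to 16.3, 16.3 and 20.9 CPM. The macrophage gene Lyz2 had 0 UMIs in the effector-like cells, 3 in muscle library 1 and 6 in muscle library 2. Fibroblast genes summed to 3.26, 1.96 and 4.70 CPM and muscle fibre and satellite cell genes to at most 52.2 CPM in each of the 3, with 8 of 9 and 9 of 12 genes at 0 in the effector-like cells.

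Both sets of spleen cells had Foxp3 at a like level. The level of Foxp3, whose product specifies the lineage, was 368.9 CPM in effector-like and 368.2 CPM in other spleen cells. In muscle it was 554.4 and 551.5 CPM, above the effector-like level by a factor of 1.5 in each library (1.23 to 1.85 and 1.23 to 1.83). Cd3e, which encodes a signalling chain of the T cell receptor, had 238.3, 212.9, 221.8 and 223.3 CPM in the same order, and 0 of 14 T cell identity genes differed by 2-fold. Of 11 Treg identity genes measured between the sets of spleen cells, 1 was at least 2-fold higher and 2 lower in the effector-like cells. Over all genes measured there, 11.2% were higher and 5.98% lower. Genes outside the selection were set against the label effector-like in the same cells, as a description with no test. Of 25 such effector genes, 17 were measured between the sets of spleen cells. Of these, 10 were at least 2-fold higher in the chosen than in the other spleen cells and 0 lower, where 11.2% of 3344 genes were higher. Members low in the other spleen cells, such as Ccr2, met the level minimum only through the chosen cells. The count therefore leans towards genes higher in the chosen cells. Klrg1, an inhibitory receptor of late effector cells, was 9.66-fold higher in them (6.82 to 13.98), and Ccr2, a receptor for inflammatory chemokines, 23.8-fold (14.03 to 43.6). The set was not uniform, however. Of the 65 cells, 37 had a UMI of at least 1 of Gzmb, Klrg1, Ccr2, Itgae and Il1rl1, 15 of at least 2 of them and 28 of none, while 23 had a UMI of Ccr7, Tcf7 or Satb1, genes of resting T cells.

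Against the effector-like spleen cells, 4.33% of 3375 measured genes were higher in muscle and 4.36% lower. A gene counted as measured when the mean of the spleen and muscle levels reached 50 CPM, and as higher or lower when both muscle libraries lay 2-fold or more to the same side; the selection genes were left out of all such counts. The lead genes among the higher were Penk, Ctla2a, Lmna and Fosb, and among the lower Pdlim1, Prkcb, Dtx1, Itm2a and Eif2b1. Both counts rest on few spleen cells. The median number of effector-like cells with a UMI was 8 for the higher genes and 10 for the lower. The highest cell of each gene held a median of 27.8% and 21.9% of its effector-like UMIs. With that cell left out, 57.8% of the lower genes were no longer 2-fold lower. Both criteria were still met by 45 lower genes (30.6%) and by 89.04% of the higher genes. Leaving that cell out lowers the spleen side of every gene by construction, so these shares cannot compare the higher with the lower genes. Over all genes it gave 9.94% higher and 1.51% lower.

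With the other spleen cells set aside, about as many of the muscle differences fell short of the criterion as remained. The reference was then also smaller, so genes near 2-fold could cross the criterion by counting error, which was not tested. Over all spleen cells together, 4.56% of 3332 genes were higher in muscle and 2.73% lower, and of these 76 higher genes (50%) and 43 lower ones (47.3%) still met the 2-fold criterion over the effector-like cells. The median log2 fold of the higher genes went from 1.40 to 1.09, and that of the lower from -1.49 to -1.16. The comparisons share both muscle libraries and the 65 cells, so they are side-by-side values of the same measurement. Seen from the other end, 49.3% of the genes higher and 21.8% of those lower over the effector-like cells were also called over all spleen cells. Genes that passed to the other side of 1 were Chsy1 and Neb among the higher, and Satb1, Hmgn1, Ugcg, Ifngr2 and Prkcq among the lower; Neb and Prkcq are named after their values were seen.

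**Figure D2:**
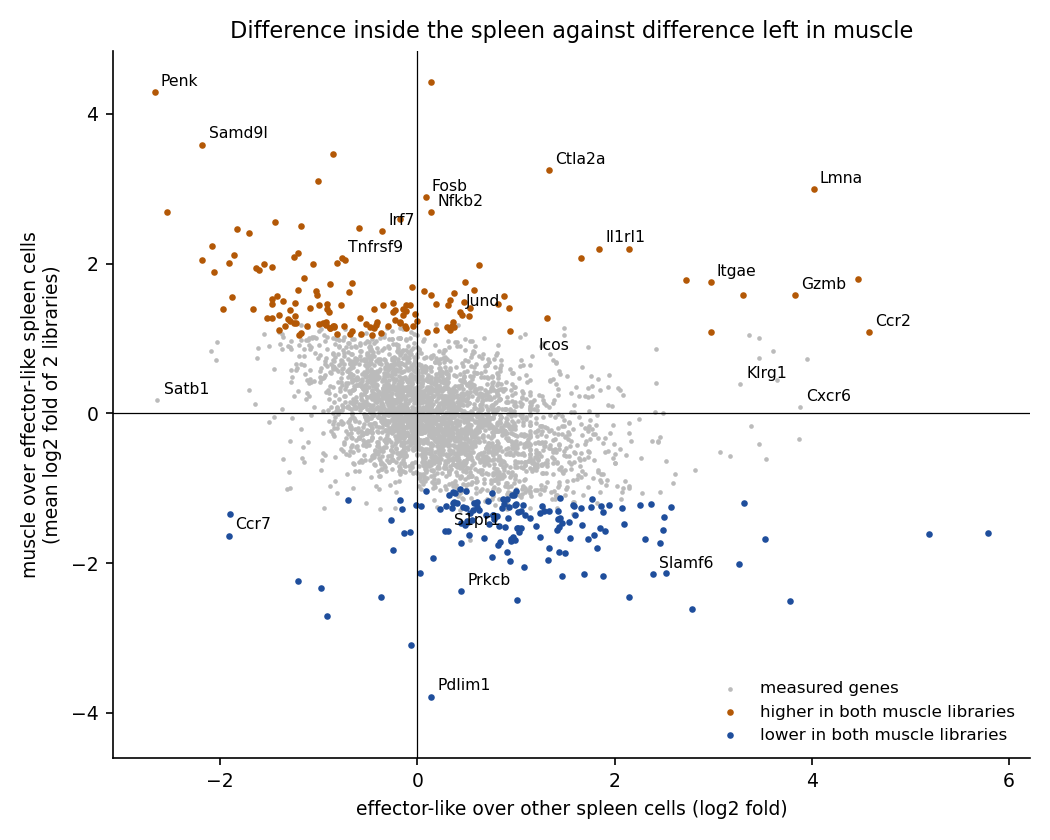
Each point is a measured gene: the horizontal axis gives the log2 fold of effector-like over other spleen cells and the vertical axis the mean log2 fold of both muscle libraries over the effector-like cells, with genes at least 2-fold higher or lower in both libraries in colour. The effector-like cells enter both axes with opposite sign, which tilts the cloud by arithmetic; Lmna, Ccr2 and Gzmb lie far right and up, Fosb and Nfkb2 up near a horizontal value of 0, and Klrg1 and Cxcr6 far right near a vertical value of 0.

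A gene's fold over the other spleen cells is the product of its fold inside the spleen and its fold over the effector-like cells, so each difference divides into a part already present in spleen effector-like cells and a part left in muscle. Of the 76 higher genes that did not remain, 46 were at least 2-fold higher in effector-like than in other spleen cells, and of the 76 that remained, 11 were. Among the lower genes, 21 of the 48 that did not remain were at least 2-fold lower in effector-like cells, and 8 of the 43 that did. Of the genes that did not remain, 30 of the 76 higher and 27 of the 48 lower differed by under 2-fold between the sets of spleen cells. Of all genes higher over the effector-like cells, 32.2% were at least 2-fold lower in those than in other spleen cells. Of all lower genes, 46.3% were at least 2-fold higher there. Over all 3344 genes measured between the sets of spleen cells, 11.2% were at least 2-fold higher and 5.98% lower in the effector-like cells. The same effector-like UMIs enter both folds with opposite sign, so counting error in them raises both shares by construction. It likewise separates genes that remained from those that did not. These counts therefore describe the division and do not test it. The next paragraphs follow the division gene by gene.

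Several effector genes were already high in the chosen spleen cells. Klrg1 stood at 571.2 CPM in the effector-like cells and 59.2 in the other spleen cells, with 622.9 and 894.9 in the muscle libraries. Over other spleen cells the muscle libraries were thus 10.5-fold and 15.1-fold higher, and over effector-like cells 1.09-fold (0.927 to 1.29) and 1.57-fold (1.34 to 1.84). Cxcr6, a chemokine receptor of tissue T cells, was at 65.3, 4.44, 62.6 and 76.2 CPM, so that muscle was 0.959-fold (0.588 to 1.64) and 1.17-fold (0.729 to 1.97) the effector-like level, although its 20 UMIs came from 4 spleen cells, 16 of them from 1. Prdm1, which encodes the effector transcription factor Blimp-1, was at 107.7, 19.2, 101.7 and 114.8 CPM, and Pdcd1, which encodes the inhibitory receptor PD-1, at 78.3, 14.8, 69.1 and 91.8 CPM. Both muscle intervals of these 2 genes over effector-like cells spanned 1. Areg, the growth factor amphiregulin, was at 450, 139.01, 376.3 and 308.4 CPM: higher in muscle than in the other spleen cells, yet 1.20-fold (0.987 to 1.44) and 1.46-fold (1.20 to 1.76) lower than in the effector-like cells, with 46 of their Areg UMIs in 1 cell. Without that cell muscle was 1.24-fold and 1.01-fold the spleen level. Icos, a costimulatory receptor, was at 1341.6, 598.9, 2378 and 2198 CPM, and remained 1.77-fold (1.60 to 1.97) and 1.64-fold (1.48 to 1.82) higher, short of the 2-fold criterion. Gata3, Batf and Maf stood within 1.5-fold of the effector-like cells in both libraries.

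Gzmb, Ccr2, Itgae, Fgl2 and Ly6a were high in the chosen cells and higher still in muscle. Gzmb, which encodes granzyme B of cytotoxic granules, had 757.3 CPM in effector-like cells, 53.2 in other spleen cells, and 2374 and 2148.2 in muscle. The gap of 44.6-fold and 40.4-fold over other spleen cells came down to 3.13-fold (2.74 to 3.60) and 2.84-fold (2.48 to 3.25). Ccr2 was at 528.8, 22.2, 1122 and 1123.4 CPM, and its 50.6-fold gap in both libraries came down to 2.12-fold (1.81 to 2.51) in each. Itgae, the integrin CD103 that binds epithelial cadherin, was at 104.5, 13.3, 317.6 and 387.7 CPM, 3.04-fold (2.13 to 4.50) and 3.71-fold (2.61 to 5.47) over the effector-like cells. Fgl2, a secreted suppressive molecule of Tregs, was at 160, 16.3, 596.1 and 385.1 CPM, 3.73-fold (2.79 to 5.08) and 2.41-fold (1.80 to 3.28). Ly6a, the surface protein Sca-1, was at 480.6 CPM in other spleen cells and 2291.2 and 2571 CPM in muscle. Muscle was 2.51-fold (2.22 to 2.84) and 2.81-fold (2.49 to 3.18) over the effector-like cells, which had 280 UMIs at 3.26 CPM for each UMI.

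For Gzmb the difference lay in how many cells had the transcript. Thinned to 1000 UMIs per cell, 16.9% of effector-like cells had a Gzmb UMI against 46.1% and 42.5% of muscle cells, while the cells with one averaged 4.5 UMIs in spleen and 4.9 and 5.0 in muscle. Without thinning, 18.5% of effector-like cells and 52.5% and 51.2% of muscle cells had a Gzmb UMI. Ccr2 had the same form, with 21.5% against 50.5% and 47.5% of thinned cells, and 2.5 UMIs against 2.4 and 2.5 in each cell with one. Tnfrsf9 took another: 15.4% against 45.2% and 39.9% of cells, with 1.6 UMIs against 2.9 and 2.6. In a gene seen mostly as single UMIs this second value sits near its floor of 1, so it is given for these high genes alone.

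The Gzmb and Ccr2 transcripts also sat in the upper end of the chosen cells. The 32 spleen cells with the highest score, about 1 in 8 of the library, held 53.8% of the UMIs of the effector-like set but 99.6% of its Gzmb UMIs, 88.3% for Ccr2, 87.4% for Klrg1, 29 of 32 for Itgae and 13 of 13 for Il1rl1. For Tnfrsf9 they held 36 of 90, for Tnfrsf4 46.5%, for Tnfrsf18 55.1% and for Jund 50.8%. Against these 32 cells muscle was 1.69-fold and 1.53-fold higher in Gzmb, 1.29-fold and 1.30-fold in Ccr2, and 0.671-fold and 0.964-fold the level in Klrg1. Il1rl1 was then 2.63-fold and 2.33-fold higher, Tnfrsf9 6.24-fold and 5.14-fold, Lmna 8.40-fold and 8.74-fold and Ctla2a 7.85-fold and 8.54-fold. With the threshold at the highest eighth, Gzmb, Ccr2 and Itgae thus fell out of the 2-fold set and Tnfrsf9, Lmna, Ctla2a and Il1rl1 did not.

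**Figure D3:**
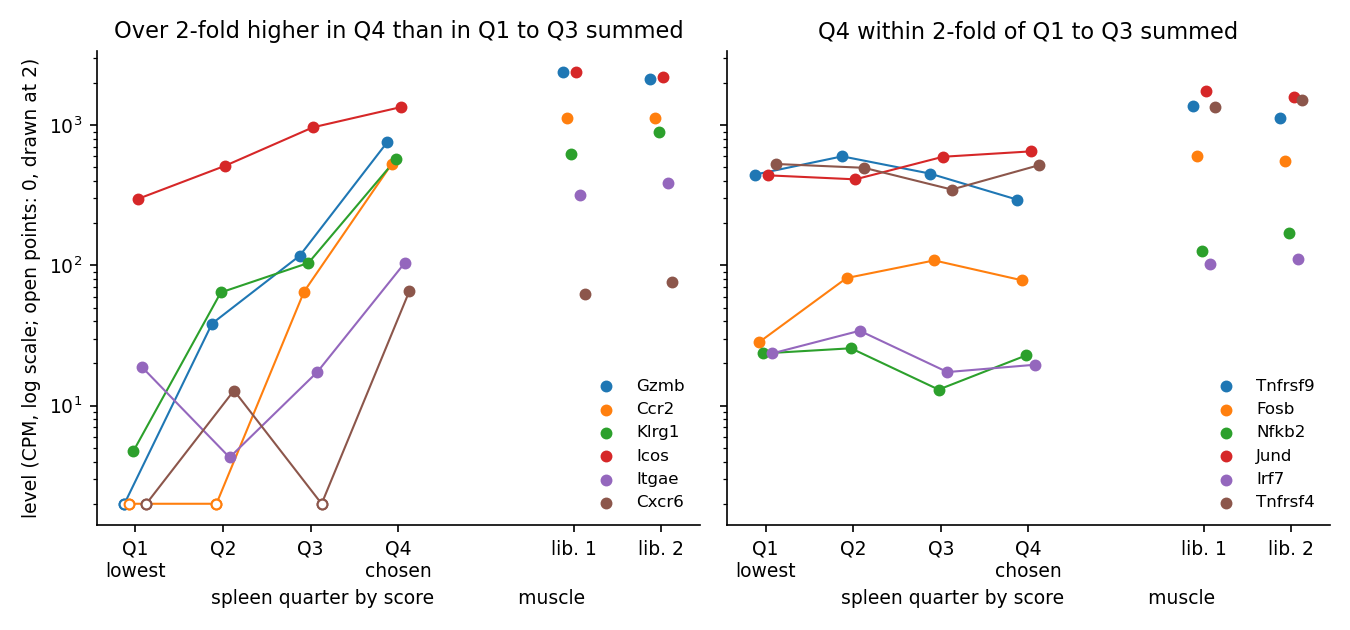
Level in CPM (log scale) in 4 score groups of spleen cells, Q1 lowest and Q4 the effector-like cells, and in both muscle libraries, for 6 genes over 2-fold higher in Q4 than in the other cells (left) and 6 within 2-fold of them (right); open points mark 0 UMIs. On the left, Cxcr6 in Q4 lies between the muscle libraries and Klrg1 in Q4 below both. On the right, Tnfrsf9, Tnfrsf4, Jund, Fosb, Nfkb2 and Irf7 stay below the muscle libraries in all 4 groups.

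The TNF receptor family holds costimulatory receptors that feed the NF-kB pathway. Among the 6 measured, 3 were higher in muscle and 0 lower, where 4.33% of all genes were higher and 4.36% lower; their median was 0.96 on the log2 scale, beside -0.06 over all measured genes, and 0 of 6 differed by 2-fold between effector-like and other spleen cells. Tnfrsf9, which encodes 4-1BB, stood at 293.8 CPM in effector-like and 500 in other spleen cells, and at 1363 and 1122 in muscle. It was the only one of the 3 lower in effector-like than in other spleen cells beyond counting error, and muscle was 4.64-fold (3.76 to 5.80) and 3.82-fold (3.09 to 4.77) above the effector-like cells. Tnfrsf4, which encodes OX40, was at 519.02, 455.5, 1342.9 and 1519 CPM, so muscle exceeded the effector-like cells 2.59-fold (2.20 to 3.06) and 2.93-fold (2.49 to 3.46). Tnfrsf18, which encodes GITR, was at 450, 458.4, 1115 and 1144 CPM, with muscle 2.47-fold (2.08 to 2.96) and 2.54-fold (2.14 to 3.04) above. These 3 genes met the 2-fold criterion under each of the other scalings, cell weights and spleen thresholds tried. Nfkb2, the precursor of the non-canonical NF-kB subunit p52, was the 1 higher gene of 17 measured in its list, at 22.9, 20.7, 127.2 and 170.6 CPM, 5.57-fold (2.65 to 14.03) and 7.47-fold (3.58 to 18.7). Nfkb1 was at 600.6, 612.2, 458.5 and 473.8 CPM.

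Immediate early genes, which are transcribed within minutes of a stimulus and respond to tissue digestion as well, had 8 of 24 measured members higher in muscle and 0 lower; the median over the 24 was 0.51 (log2), and 4.33% of all genes were higher. Inside the spleen 0 of 24 were 2-fold higher and 4 lower in effector-like cells, where 5.98% of all genes were lower. Fosb, an AP-1 subunit, stood at 78.3 CPM in effector-like cells, 73.9 in other spleen cells, and 606.5 and 555.7 in muscle, and was 7.74-fold (5.17 to 12.1) and 7.09-fold (4.74 to 11.1) higher. Jund was at 650, 482.1, 1739 and 1584.7 CPM, 2.68-fold (2.32 to 3.11) and 2.44-fold (2.11 to 2.83). Fos and Jun behaved otherwise: Fos stood at 117.5, 279.5, 449 and 553.1 CPM and Jun at 32.6, 147.9, 121.96 and 148.2 CPM, so Jun was 3.74-fold (1.99 to 7.92) and 4.54-fold (2.43 to 9.57) above the effector-like cells but 0.825-fold and 1.0-fold the level of the other spleen cells. The 10 Jun UMIs of the effector-like set came from 5 cells. Egr1, Nr4a1, Ier5 and Zfp36 completed the 8, between 2.09-fold and 2.92-fold; Egr1 and Ier5 lost the call with the highest 1 in 2 spleen cells as reference, Nr4a1 with totals without ribosomal protein genes and Zfp36 in thinned cells. By contrast, Junb stood at 2441.7, 1982, 3120 and 3277 CPM and Ier2 at 564.7, 365.3, 510.7 and 531.7 CPM. Digestion differed between the tissues, and its part in these values was not tested.

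A small set of genes was far lower in both sets of spleen cells than in muscle, though the 2 sets could differ as well. Lmna, the gene for A-type lamins of the nuclear envelope, was at 71.8 CPM in effector-like cells, 4.44 in other spleen cells, and 560 and 583 in muscle. Muscle was 126.3-fold and 131.4-fold above the other spleen cells, which had 3 Lmna UMIs, and 7.80-fold (5.12 to 12.5) and 8.12-fold (5.33 to 13.004) above the effector-like cells, whose 22 UMIs came from 7 cells. Ctla2a, an inhibitor of cathepsin proteases, was at 52.2, 20.7, 476.1 and 518.1 CPM, 9.12-fold (5.58 to 16.03) and 9.92-fold (6.08 to 17.4). Its neighbour Ctla2b had 3 UMIs in the effector-like cells, or 9.79 CPM, against 168.9 and 130.4 CPM in muscle, a ratio of 17.2 (5.84 to 84.2) and 13.3 (4.51 to 65.03). The 2 genes are near copies on chromosome 13, and how reads were divided between them is not given in the sources used here.

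Il1rl1, the ST2 receptor, stood at 42.4 CPM in effector-like cells, 11.8 in other spleen cells, and 207.4 and 183.7 in muscle. It was 4.89-fold (2.82 to 9.28) and 4.33-fold (2.50 to 8.21) above the effector-like cells, of which 5 had its 13 UMIs. Penk, the precursor of enkephalin opioid peptides, had 0 UMIs in the effector-like cells and 179.3 and 204.02 CPM in muscle, at least 18.3-fold and at least 20.8-fold higher with a floor of 3 counts in place of 0. It was not absent from the spleen, since the other spleen cells had 42 UMIs in 8 cells, or 62.1 CPM. Penk is therefore a gene whose gap to muscle widened when the resting cells were set aside, from 2.89-fold and 3.28-fold over the other spleen cells, and it was seen in 6.23% and 7.20% of muscle cells. Samd9l, at 13.1, 59.2, 142.2 and 173.8 CPM, and Bmyc, at 16.3, 94.6, 111.5 and 100.2 CPM, had the same order.

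Treg identity genes divided. Il2ra, the high-affinity chain of the interleukin-2 receptor, was at 359.1, 421.5, 932.6 and 780 CPM, 2.60-fold (2.14 to 3.18) and 2.17-fold (1.79 to 2.66) above the effector-like cells, and Socs2, a feedback inhibitor of cytokine signalling, at 68.5, 54.7, 214.6 and 178.97 CPM, 3.13-fold (2.01 to 5.13) and 2.61-fold (1.68 to 4.27). With Tnfrsf18 these made 3 of 11 measured members higher and 1 was lower, where 4.33% of all genes were higher and 4.36% lower. Against the highest 32 spleen cells Il2ra was 2.33-fold and 1.95-fold and Socs2 1.97-fold and 1.64-fold, which ended both calls. Nrp1, neuropilin-1, a surface protein of thymus-derived Tregs, was the 1 lower: 656.1, 448.1, 241.97 and 247.8 CPM, so effector-like cells were 2.71-fold (2.27 to 3.23) and 2.65-fold (2.23 to 3.13) above muscle. Ikzf2, which encodes Helios, stood at 1296, 890, 943.1 and 879.2 CPM, 1.37-fold (1.23 to 1.54) and 1.47-fold (1.32 to 1.65) above muscle. Both were higher in effector-like than in other spleen cells, by 1.46-fold (1.22 to 1.76) for Nrp1. Ctla4 was at 1041, 783.8, 2771.2 and 2004 CPM and missed the criterion in muscle library 2, at 1.92-fold (1.72 to 2.16).

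**Figure D4:**
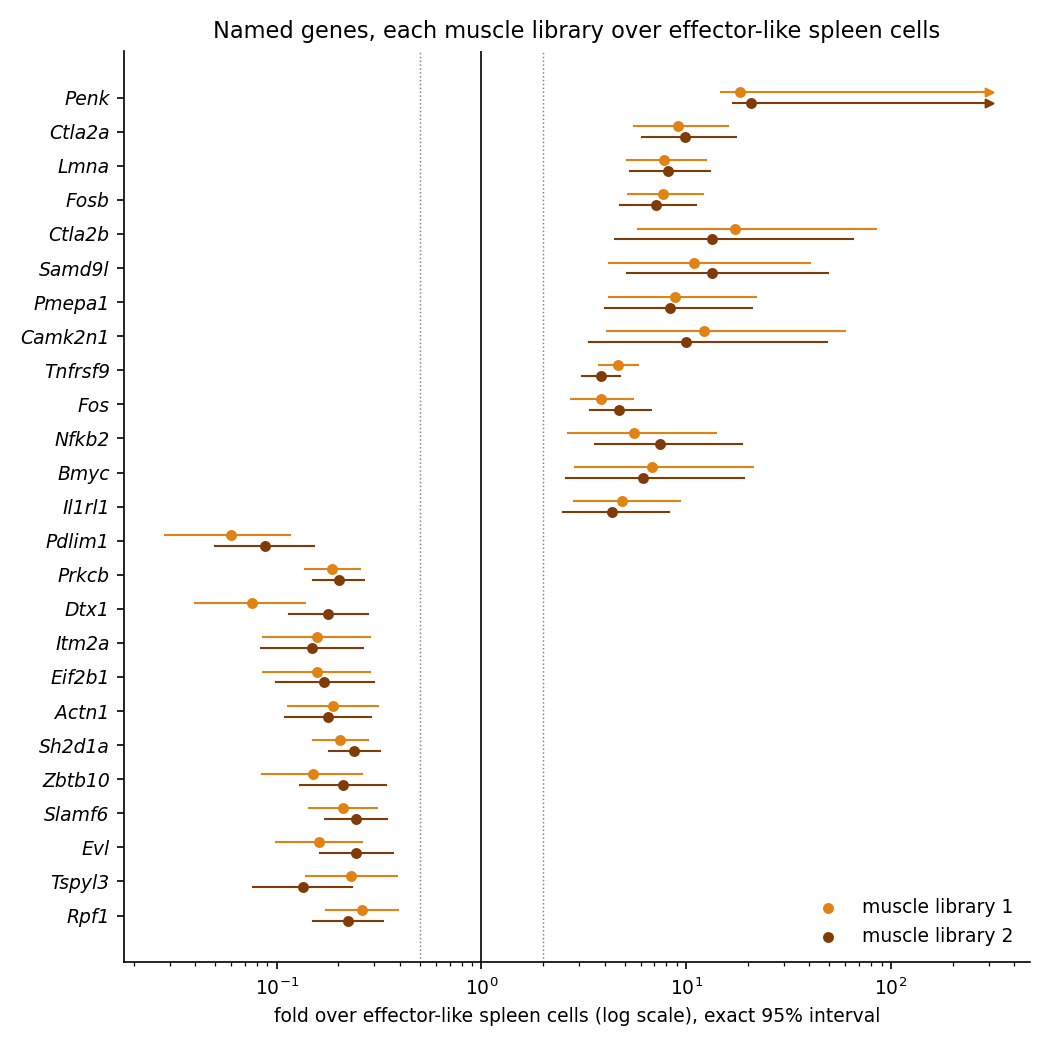
Fold of each muscle library over the effector-like spleen cells (log axis) with its exact 95% interval for higher and lower genes with the firmest intervals; dotted lines mark 2-fold either way and arrows intervals with no upper limit. The intervals of Penk and Ctla2b are wide because the spleen side had 0 and 3 UMIs, and those of Tnfrsf9 and Prkcb, with 90 UMIs each, are narrow.

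Interferon-stimulated genes, which cells switch on when interferon reaches them, had 9 of 27 measured members higher in muscle and 0 lower; the median over the 27 was 0.56 (log2), and 4.33% of all genes were higher. Inside the spleen 0 of 23 differed by 2-fold. The count depended on where the spleen threshold lay: with the highest 1 in 3 or 1 in 2 of the spleen cells as the reference, 3 members were higher. Irf7, a transcription factor that amplifies the interferon response, stood at 19.6 CPM in effector-like cells, 25.1 in other spleen cells, and 101.7 and 110.6 in muscle, 5.19-fold (2.33 to 14.4) and 5.65-fold (2.55 to 15.6) higher. Bst2, or tetherin, which holds budding virus at the cell surface, was at 88.1, 63.6, 281.1 and 216.02 CPM, 3.19-fold (2.16 to 4.90) and 2.45-fold (1.66 to 3.76). Ifit1, an RNA-binding antiviral protein, was at 22.9, 62.1, 160 and 112.2 CPM, and all 7 of its effector-like UMIs came from 1 cell. Igtp and Irgm1, GTPases that act on pathogen vacuoles, were between 2.12-fold and 2.33-fold higher, and Isg20, Zbp1, Ifi35 and Ifi47 between 2.07-fold and 2.85-fold. A stricter reference, the highest 1 in 8 of the spleen cells, ended the calls of Bst2, Igtp, Isg20, Zbp1, Ifi35 and Ifi47. Of the 9, Irf7 alone was called under every scaling, cell weight and spleen threshold tried: 7 settings ended the call of Igtp, 6 each those of Zbp1 and Ifi47, 4 that of Ifi35, 3 that of Isg20, 2 each those of Ifit1 and Irgm1, and 1, the highest 1 in 8, that of Bst2.

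Promoters of the interferon-stimulated genes are shown because the element that interferon-activated factors bind has a known core. The motif searched was GAAA, any pair of bases, then GAAA again, on either strand, in the 300 bases from 250 before to 50 after each start in RefSeq (GRCm38.p6). Of the 9 higher members 8 had an entry and 4 of these (50%) held the motif, as did 7 of 12 (58.3%) of the measured members that were not higher, 4.53% of all measured genes and 3.99% of all genes in the table. The motif thus marked the list and did not separate its higher from its other members. Among all genes higher over the effector-like cells, 7.21% of those with an entry held it. The 4 promoters follow 5′ to 3′ on the gene's strand, with matches in capitals, overlapping ones joined; those of Ifit1 lie on the opposite strand and so read TTTC, a pair of bases, TTTC. They are Ifit1 (chr19:34640639-34640938, plus strand), Bst2 (chr8:71537423-71537722, minus strand), Igtp (chr11:58199306-58199605, plus strand) and Irgm1 (chr11:48871371-48871670, minus strand).
Ifit1: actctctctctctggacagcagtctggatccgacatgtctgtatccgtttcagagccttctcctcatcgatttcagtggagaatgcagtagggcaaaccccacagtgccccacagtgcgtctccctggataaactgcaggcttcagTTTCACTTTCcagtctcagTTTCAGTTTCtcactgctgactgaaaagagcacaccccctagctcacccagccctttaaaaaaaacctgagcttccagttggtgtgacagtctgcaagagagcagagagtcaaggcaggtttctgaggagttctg
Bst2: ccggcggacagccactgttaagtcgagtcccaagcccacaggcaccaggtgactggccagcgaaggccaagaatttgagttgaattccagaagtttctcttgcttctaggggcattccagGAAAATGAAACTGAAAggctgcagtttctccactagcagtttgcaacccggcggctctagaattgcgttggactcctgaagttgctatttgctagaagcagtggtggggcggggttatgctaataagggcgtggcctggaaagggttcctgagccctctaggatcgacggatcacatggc
Igtp: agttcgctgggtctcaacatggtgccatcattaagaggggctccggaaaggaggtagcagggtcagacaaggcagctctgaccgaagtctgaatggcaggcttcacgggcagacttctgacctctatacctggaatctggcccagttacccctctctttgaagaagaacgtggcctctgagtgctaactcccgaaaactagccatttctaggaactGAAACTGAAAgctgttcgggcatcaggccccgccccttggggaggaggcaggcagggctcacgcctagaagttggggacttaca
Irgm1: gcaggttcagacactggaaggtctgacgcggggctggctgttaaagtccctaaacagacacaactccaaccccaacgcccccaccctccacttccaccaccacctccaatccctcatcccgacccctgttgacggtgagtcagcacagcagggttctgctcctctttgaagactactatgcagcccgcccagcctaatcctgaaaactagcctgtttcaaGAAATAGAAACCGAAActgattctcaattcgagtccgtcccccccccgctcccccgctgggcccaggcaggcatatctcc
In Igtp and Irgm1 the matches begin 34, 30 and 24 bases before the start, and in Ifit1 and Bst2 between 85 and 130 bases before it. A match is a run of letters and shows no binding.

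Genes of resting and circulating lymphocytes made up part of what was lower. Of 11 measured resting genes 4 were lower in muscle than in the effector-like cells and 0 higher. Over all genes 4.36% were lower and 4.33% higher. The median of the 11 was -0.42 on the log2 scale, beside -0.06 over all measured genes. Over the other spleen cells 13 of 18 were lower and the median was -3.23, where 4.49% of all genes were lower and 7.97% higher. The 2 medians are not of the same genes. Members low in both muscle and the effector-like cells, such as Tcf7, met the level minimum only through the other spleen cells. The medians alone therefore do not measure how far the gap shrank. The 4 genes lower than in the effector-like cells were S1pr1, Ccr7, Itm2a and Pdlim1. With the highest 1 in 8 of the spleen cells as reference, all of these but S1pr1 lost the call. S1pr1, the receptor that guides T cells out of lymphoid organs, stood at 610 CPM in effector-like cells, 493.9 in other spleen cells, and 225.01 and 186.3 in muscle. Effector-like cells were thus 2.71-fold (2.26 to 3.25) and 3.28-fold (2.73 to 3.92) above muscle. Ccr7, the homing receptor for lymph nodes, was at 160, 601.9, 47.6 and 55.8 CPM, and its gap shrank from 12.6-fold and 10.8-fold over muscle in the other spleen cells to 3.36-fold (2.29 to 4.89) and 2.86-fold (2.0 to 4.05). Against the highest 32 spleen cells, which held 13 of its 49 effector-like UMIs, muscle was at 0.604-fold and 0.708-fold, and the Ccr7 call ended there and in thinned cells. Satb1, a chromatin organiser of resting T cells, was at 84.9, 527.9, 110 and 84.5 CPM: muscle was 1.29-fold (0.851 to 2.03) and 0.996-fold (0.656 to 1.57) the effector-like level. Klf2, a transcription factor of quiescent T cells, was at 212.2, 292.8, 170 and 184.7 CPM and did not pass 2-fold. Tcf7, a transcription factor of resting T cells, fell under the level minimum, at 62.02, 158.2, 8.48 and 2.61 CPM; its 19 effector-like UMIs came from 10 cells.

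**Figure D5:**
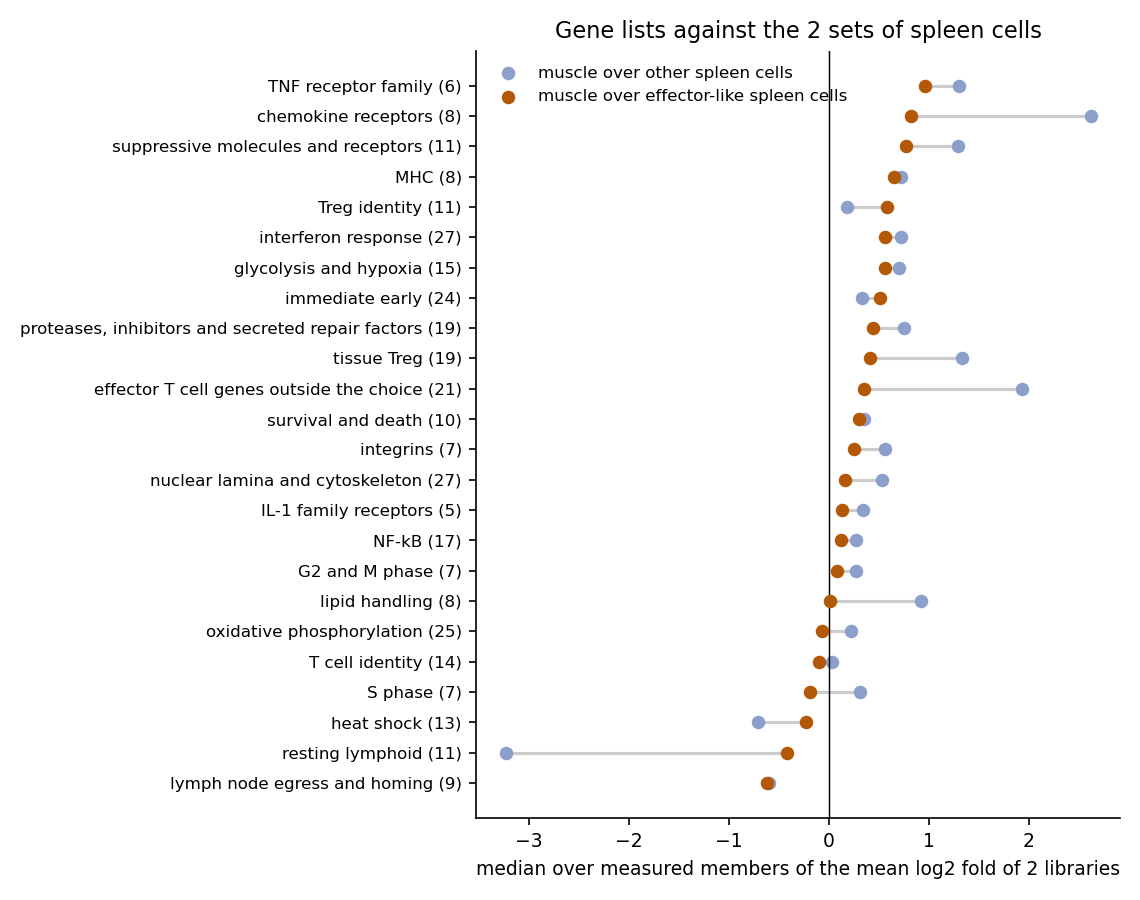
Median over the measured members of each gene list of the mean log2 fold of both muscle libraries, over the other spleen cells (blue) and over the effector-like spleen cells (orange), each over its own measured members; the number over effector-like cells is in brackets. Medians of the resting list (-3.23 to -0.42) and the effector list (1.93 to 0.35) move furthest towards 0, with the chemokine receptors (2.62 to 0.82), while interferon (0.72 to 0.56) and MHC (0.73 to 0.65) genes barely move and immediate early genes move away (0.33 to 0.51). The resting medians cover 18 and 11 genes, so their move is partly a change of members.

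Some lower genes were highest in the effector-like spleen cells. Prkcb, protein kinase C beta, stood at 293.8 CPM in effector-like cells, 215.9 in other spleen cells, and 54.8 and 58.96 in muscle, and was 5.36-fold (3.94 to 7.31) and 4.98-fold (3.73 to 6.63) above muscle, with UMIs in 25 of 65 effector-like cells. Slamf6, a receptor of the SLAM family, was at 186.1, 35.5, 39.1 and 45.4 CPM, 4.75-fold (3.25 to 6.95) and 4.10-fold (2.88 to 5.79). Sh2d1a, which encodes SAP, the adaptor that SLAM receptors signal through, was at 277.5, 100.6, 56.7 and 66.3 CPM, 4.89-fold (3.58 to 6.67) and 4.19-fold (3.14 to 5.55). Slamf6 and Sh2d1a were thus highest in the effector-like cells of the 4 groups, 5.24-fold (3.20 to 8.83) and 2.76-fold (1.98 to 3.85) above the other spleen cells. Over the other spleen cells, muscle was 1.1-fold and 1.28-fold in Slamf6 and 0.564-fold and 0.659-fold in Sh2d1a, and neither was called. Rpf1, a ribosome biogenesis factor, was at 150, 70.98, 39.1 and 33.4 CPM, and its muscle levels were 0.551-fold and 0.470-fold those of the other spleen cells.

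Other lower genes were as high in the other spleen cells. Pdlim1, a cytoskeletal adaptor, was at 130.6, 118.3, 7.83 and 11.5 CPM, 16.7-fold (8.58 to 34.9) and 11.4-fold (6.60 to 20.1) above muscle, with 14 of its 40 effector-like UMIs in 1 cell. Dtx1, deltex, a target of Notch signalling, was at 137.1, 143.4, 10.4 and 24.5 CPM, 13.1-fold (7.23 to 25.03) and 5.59-fold (3.60 to 8.66). Actn1, alpha-actinin, was at 114.2, 147.9, 21.5 and 20.4 CPM, Evl, an actin regulator, at 137.1, 269.1, 22.2 and 33.4 CPM and Itm2a at 91.4, 173.02, 14.3 and 13.6 CPM. Against the highest 32 spleen cells Pdlim1 was 0.430-fold and 0.631-fold, and Evl 0.406-fold and 0.612-fold, so both left the 2-fold set there. Actn1, at 0.355-fold and 0.336-fold, and Itm2a, at 0.197-fold and 0.186-fold, stayed over 2-fold lower against these cells but lost their calls because their mean level fell under 50 CPM. The same minimum ended the calls of Pdlim1 and Itm2a without the highest cell of each, at 0.0897-fold and 0.132-fold and at 0.204-fold and 0.193-fold, and the Dtx1 call ended in thinned cells. Eif2b1, Zbtb10 and Tspyl3 rested on 28 to 32 UMIs of 4 to 11 effector-like cells, and each lost its call without its highest cell. Zbtb10 had 1 of its 32 UMIs in the highest 32 cells, against which muscle was 2.58-fold and 3.61-fold higher, the opposite direction.

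The selection genes chose the spleen cells, so each was read in spleen cells chosen again by the other 13. Vim, the intermediate filament vimentin, was then 2.23-fold (2.0 to 2.50) and 2.24-fold (2.01 to 2.51) higher in muscle, and S100a4 1.73-fold (1.58 to 1.89) and 1.73-fold (1.58 to 1.89). For Cd44, the hyaluronan receptor, muscle exceeded the chosen cells 2.23-fold (1.77 to 2.86) and 1.67-fold (1.32 to 2.13), short of 2-fold in library 2. Anxa2, at 0.752-fold and 0.710-fold, and Cd48, at 0.742-fold and 0.717-fold, were below the chosen cells. S100a11, Lgals3 and Crip1 lay between 0.897-fold and 1.40-fold. S100a6 was at 1.19-fold and 1.1-fold, S100a10 at 0.963-fold and 0.916-fold, Lgals1 at 1.05-fold and 1.19-fold, and Ahnak at 1.1-fold and 1.21-fold. Itgb1, the integrin beta-1 chain, was lower in muscle, at 0.289-fold (0.248 to 0.337) and 0.316-fold (0.273 to 0.365). Id2, a transcriptional inhibitor of effector lymphocytes, did not follow the other 13 inside the spleen, with 165.8 CPM in the chosen and 187.98 in the other cells (0.882-fold, 0.623 to 1.23), and muscle exceeded the chosen cells 4.53-fold (3.41 to 6.14) and 3.93-fold (2.96 to 5.32).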

How the data were processed

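Raw UMI counts of 23725 genes in 1627 cells are what the authors deposited; their alignment is named only as mm10, TopHat2 and SAMtools, without versions, per the submitters' processing notes. Neither the annotation nor the cell filter, the strand setting or the collapsing of UMIs is given in the sources used here. Cells were assigned to libraries by the sample names that the deposited metadata table and the labels share, and all were kept. The table's counts summed to between 98.7% and 98.8% of the UMIs that the labels state. No doublet caller was run; 0 effector-like cells and 12 and 7 muscle cells held over 3 times their group's median UMIs.

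UMIs were summed per group and scaled to CPM. Folds carry exact conditional binomial (Clopper-Pearson) and shares exact binomial 95% intervals. A sum of 0 was replaced by 3 counts per group. At the 50 CPM minimum a gene equal on both sides has about 15 UMIs in the effector-like cells. For shares, cells were thinned to 1000 UMIs with seed 1, which left out 26 and 7 muscle cells and 0 spleen cells. The members, 33 gene lists and settings were chosen with earlier results of these data known. Named are the 14 higher and 12 lower genes with the firmest intervals among called genes (ribosomal, predicted and receptor-segment genes left out), the 8 each way whose fold fell most when resting cells were set aside, up to 4 members per list with 3 or more measured genes, the selection genes and Foxp3, Cd4 and Cd3e; others are list members named for context after their values were seen, and some genes that these rules name are not reported here. Scaling, level minimum, fold, cell weights, thresholds, score and library alternatives are in the closing section. Scripts were tested on simulated data. The work used scipy 1.17.1, pandas 2.3.3, matplotlib 3.10.9 and numpy 2.4.6 under Python 3.11.15; DESeq2 1.42.0 and edgeR 4.0.16 (R 4.3.3) gave scaling factors only. Gene positions come from GENCODE M21 on GRCm38, in which 96.2% of the table's symbols occur.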

Additional observations from a re-analysis of the deposited data

How the results depend on the processing

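No paired analysis was possible because the numbers that the labels share between groups number cells, and no result comes from a test. Of 3375 genes 4.33% were higher and 4.36% lower, and 48.97% of the differences over all spleen cells remained. At a minimum of 25 CPM the shares were 6.72% higher and 5.94% lower of 5354 genes, at 100 CPM 3.19% and 1.57% of 1788, and with no minimum 7.54% and 7.70% of 14240. They were 11.4% and 13.8% at 1.5-fold, and 1.33% and 0.889% at 3-fold. Thinned cells gave 8.50% higher and 10.5% lower, and the highest 1 in 8 of the spleen cells 8.44% lower. Totals without ribosomal protein genes gave 6.497% lower, which moved the share of higher among called genes from 49.8% to 38.7%. Leaving out the effector-like cell with most UMIs of each gene, chosen after seeing the data, gave 9.94% higher and 1.51% lower. With 1 muscle library left out 6.24% to 7.08% were higher, 6.33% to 7.79% lower and 48.2% to 53.4% remained, since the other library then met the criterion alone. Under edgeR TMM and DESeq2 factors 4.88% and 4.601% were higher and 3.63% and 4.13% lower. The share that remained lay between 36.8% (no minimum) and 60.9% (the highest 1 in 2 of the spleen cells) over all alternatives. Zbtb10 changed sign with the highest 1 in 8 of the spleen cells (log2 1.61); the cause was not tested. Of 9271 single-gene values under alternatives, 8942 stayed between the lowest lower and the highest upper bound of both libraries' counting intervals. The level minimum and fold settings cannot move such a value, so this count overstates stability. Of 45 named higher genes, 22 met the 2-fold criterion under every alternative other than the 100 CPM and 3-fold settings, as did 6 of 21 named lower genes. The highest 1 in 8 ended 15 higher and 6 lower calls. Leaving out the highest cell, which lowers the spleen side by construction, ended 2 higher and 10 lower calls. Depth limits the spleen side, where 1 UMI is 3.26 CPM; 58.9% of the higher genes lay under 50 CPM there, and 72.8% of the lower genes lay under it in muscle, so these passed the minimum through 1 side alone.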

Other observations

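Antigen presentation and energy genes gave values not described above. Of 8 measured MHC genes 0 were 2-fold, and their median was 0.65 (log2): B2m, the light chain of MHC class I, stood at 6535 CPM in effector-like cells, 6149 in other spleen cells, and 10444 and 9664 in muscle. H2-K1 was at 4387, 4644.9, 6329 and 6950 CPM. Of 15 glycolysis and hypoxia genes 1 was higher, near the 4.33% of all genes: Pkm, at 323.2, 283.9, 654 and 749.3 CPM, 2.02-fold (1.64 to 2.51) and 2.32-fold (1.89 to 2.87), a call that 7 of the alternative settings ended. Of 25 respiratory chain genes 0 were 2-fold either way.

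Lipid genes divided. Dgat1, which completes triglyceride synthesis, was at 117.5, 66.5, 290.9 and 362.1 CPM, and the fatty acid binding protein gene Fabp5 at 48.96, 34.01, 106.96 and 135.1 CPM. Acsl4, which activates long-chain fatty acids, was at 110.99, 69.5, 47.6 and 25.6 CPM, and Hmgcs1, of cholesterol synthesis, at 110.99, 57.7, 50.9 and 23.5 CPM, so both were highest in the effector-like spleen cells. Leaving out the highest cell of each ended both calls, 3 other settings ended that of Hmgcs1 and 3 that of Fabp5. The list had 2 of 8 measured members higher and 2 lower.

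Among cell cycle genes Rrm2, the small subunit of ribonucleotide reductase, was the 1 lower gene of 7 S phase genes measured, where 4.36% of all genes were lower, at 88.1, 17.7, 22.2 and 33.9 CPM, and Cenpa the 1 higher of 7 G2 and M phase genes, at 58.8, 60.6, 123.9 and 140.9 CPM. Each call was ended by 4 settings, for Rrm2 among them leaving out its highest cell. Mki67, the proliferation marker, had 9 UMIs in 4 effector-like cells. The secreted ribonuclease gene Rnase4 had 6 UMIs in effector-like and 0 in other spleen cells, against 86.7 and 93.4 CPM in muscle.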
